A study of Mus musculus with 2 samples.

Results

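Transcripts of the motile cilium were followed in cultured mouse ovaries as a check on oviduct tissue that may lie beside the ovary. The set held 10 listed names, Foxj1, Ccdc65, Ccdc39, Dnah5, Dnah9, Dnaic1, Rsph1, Tekt1, Spag6 and Hydin, of 20658 genes named on the array. The mouse gene table gives the name Spag6 to one gene and lists Spag6 as an older name of Spag6l, so both were followed, and the set came to 11 genes with 17 probes, each of them spotted once on an array. The genes were chosen by their known place in the cilium, and with earlier array results in view, among them the ratio of 1 Ccdc65 probe. The signals, detection marks and ratios below belong to the measurements that chose the genes, and they are given as a description without a test.

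Motile cilia beat by means of the axoneme, a ring of microtubule doublets around a central pair. Outer and inner dynein arms drive the sliding of the doublets, radial spokes and the nexin-dynein regulatory complex control it, and the transcription factor Foxj1 switches on much of the program in cells with motile cilia. In the female reproductive tract such cells line the oviduct, next to secretory cells that make Ovgp1, the oviductal glycoprotein. In mice the oviduct opens into the bursa that encloses the ovary, whose own surface carries a flat to cuboidal epithelium.

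Ovaries of 2-week-old mice, cut lengthwise in matching pieces, were cultured for 3 days with ligands of the tachykinin receptors, and RNA of each group was hybridised to 1 single-colour array. The agonist group received [Sar9, Met(O2)11]-SP for TACR1, GR-64349 for TACR2 and a succinylated fragment peptide of substance P for TACR3. The antagonist group received a non-peptide antagonist for TACR1, GR-94800 for TACR2 and SB218795 for TACR3, and each ligand was used at 1 μM. A culture without a ligand was not analysed here. The strain of these mice and the number of ovaries behind each RNA are not given in the sources used here. A pool of ovary pieces holds many cell types, so fewer cells of a type and less RNA per cell cannot be told apart.

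The signal of a spot is its brightness after the background correction of the scanner software, and a spot counted as well above background where the software marked it so. The lowest signal with this mark was 18.1 units on the array of the agonists and 19.9 on the other, and 0 spots were saturated. Signals were compared as log2 ratios, agonists minus antagonists, after each array was set relative to its 75th percentile (672 and 569 units). In the 33073 probes with this mark on both arrays, the log2 ratios had a median of -0.10 and an SD of 0.43. Each group has 1 array, which gives no measure of the spread from ovary to ovary. The error of a spot is given by the software's own error and by the spread of probes printed 10 times. The SD of the log2 ratio over the spots of such a probe had a median of 0.25 below 100 units (38 probes), 0.12 from 100 to 300 units (51 probes) and 0.075 from 300 to 1000 units (64 probes). All 15 transcripts of the ovary list, such as Gdf9 and Zp3 of the oocyte and Inha of granulosa cells, were well above background on both arrays.

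Promoters are shown for the genes on which the values below turn, Tekt1 and Ccdc65, and for Hydin, whose letters lie closest to the start. The search covered both strands of 250 bases before to 50 bases after the transcription start in RefSeq (GRCm38.p6), for the core words GTTGCC and GTTACC of RFX factors, which act with Foxj1 at cilium genes, and for the forkhead letters TGTTTAC and TGTTTGT. The RFX words differ from each other in a single letter, so no stretch was counted for both. Capitals mark the RFX words, read in either direction.
Tekt1, chr11:72361833-72362132, minus strand: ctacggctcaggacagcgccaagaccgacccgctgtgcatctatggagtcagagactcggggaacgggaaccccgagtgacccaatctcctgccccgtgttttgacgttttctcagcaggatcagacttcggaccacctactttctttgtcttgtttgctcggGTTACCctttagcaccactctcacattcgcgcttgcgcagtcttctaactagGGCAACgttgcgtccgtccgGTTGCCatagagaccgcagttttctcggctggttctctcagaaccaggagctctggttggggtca
Hydin, chr8:110266727-110267026, plus strand: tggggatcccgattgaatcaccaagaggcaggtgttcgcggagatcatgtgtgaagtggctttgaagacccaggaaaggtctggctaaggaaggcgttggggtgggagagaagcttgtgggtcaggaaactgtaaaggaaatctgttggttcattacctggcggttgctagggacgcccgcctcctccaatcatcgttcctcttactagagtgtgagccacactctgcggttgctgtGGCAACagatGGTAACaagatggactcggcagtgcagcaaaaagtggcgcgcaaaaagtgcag
Ccdc65, chr15:98707944-98708243, plus strand: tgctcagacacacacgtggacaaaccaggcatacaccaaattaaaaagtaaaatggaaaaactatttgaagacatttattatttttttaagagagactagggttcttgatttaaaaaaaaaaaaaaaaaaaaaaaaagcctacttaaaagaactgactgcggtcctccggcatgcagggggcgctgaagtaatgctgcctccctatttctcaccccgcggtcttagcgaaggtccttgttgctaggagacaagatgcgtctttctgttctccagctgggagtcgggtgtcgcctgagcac
The Tekt1 window held 3 RFX words, which began 87, 35 and 15 bases before the start, and the Hydin window held 2, which began 13 and 3 bases before it. Another listed start of Tekt1 had none of them. The Ccdc65 window held none of the 4 searched words. In all, 10 windows of 9 of these genes were listed. GTTGCC was in 4 of the 10 windows against 12.5% of all 32851 promoters, GTTACC in 4 against 7.21%, and either of them in 6 against 18.6%, those of Ccdc39, Dnaic1, Hydin, Spag6, Spag6l and Tekt1. TGTTTAC (3.65% of all promoters) and TGTTTGT (6.61%) were in 0 of the 10 windows. These matches describe letters and do not show binding.

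Of the 11 genes, 7 had a detected probe, one well above background, on the agonist array, where 78.0% of all named genes had one, and the same count of 7 was found on the antagonist array, where 74.7% of named genes had one. Counted by probe, 10 of 17 were well above background on each array, against 64.6% of all probes with the agonists and 60.8% with the antagonists. These counts are near the shares of all genes and probes, and nothing is read from the difference. The genes with no probe above background were Dnah5, Dnah9, Spag6 and Spag6l. By the software's weaker mark, a signal positive and significant against background, 9 of the 11 genes were seen with the agonists and 8 with the antagonists, beside 89.5% and 86.6% of all named genes.

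**Figure D1:**
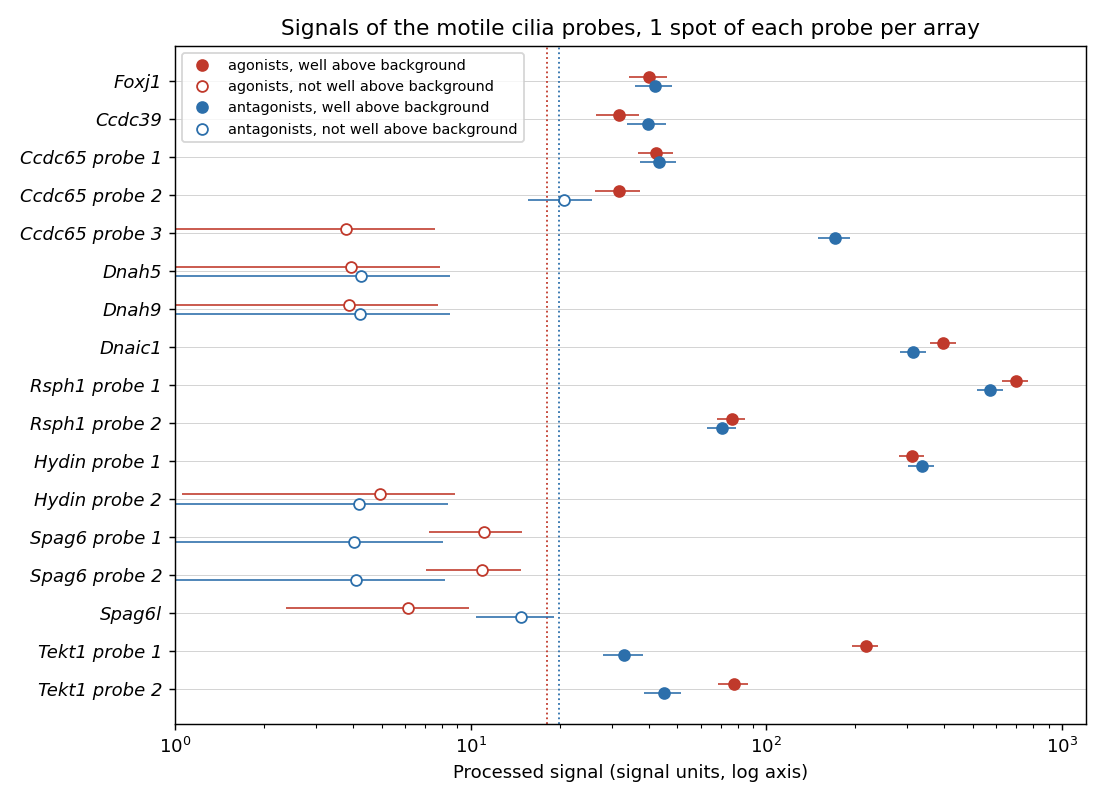
Processed signal of each motile cilia probe (log axis, signal units) with the agonists (red) and the antagonists (blue). Filled points are well above background and open points are not, bars are the software's error (those cut at the left edge reach below 1 unit), and the dotted lines mark the lowest signal well above background on each array. Most probes lie side by side on the arrays, while Ccdc65 probe 3 (A_52_P74576) and Tekt1 probe 1 (A_55_P2111990) stand apart in opposite directions.

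Foxj1, the forkhead factor that switches on the motile cilium program, gave a signal of 40.2 units with the agonists and 42.0 with the antagonists. Both were well above background. Its log2 ratio was -0.31 with a software error of 0.30. The value thus lay within its error of the median of all probes.

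Among the regulators of the nexin link and the spacing of the doublets, Ccdc39, which with Ccdc40 forms the ruler that sets the repeat of the axoneme, gave 31.9 units with the agonists and 39.8 with the antagonists (log2 ratio -0.56, error 0.32). Ccdc65, a subunit of the nexin-dynein regulatory complex, had 3 probes that did not move together. Probe A_55_P2095603 gave 42.5 and 43.5 units, detected on both arrays, with a log2 ratio of -0.27 (error 0.28). Probe A_66_P108434 gave 31.9 units with the agonists and 20.6 with the antagonists, where it was not well above background. Its log2 ratio of 0.39 was within its error of 0.43, and normexp, another background correction, turned it to -0.17. Probe A_52_P74576 gave 3.78 units and no detection for the agonists and a detected 171 units for the antagonists.

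For this last Ccdc65 probe the antagonist value was at least 11.1-fold higher. Among 771 probes detected with the antagonists only, 7, this one included, had a bound as large, and 28.1% had a bound of at least 2-fold. The raw spot behind it read 45.5 units over a local background of 42.0 with the agonists and 166 over 42.0 with the antagonists, and neither spot was marked as an outlier. The 12 spots within 2 rows and columns of it that were well above background on both arrays had a median log2 ratio of 0.04, from -0.60 to 0.73. Only neighbours detected on both arrays were compared, so a loss of signal shared with a neighbour could not show among them. The other Ccdc65 probes did not share the drop. Of the 68 named genes with such a probe of at least 2-fold, 17 had another probe well above background on both arrays, as Ccdc65 had. Under normexp the bound of A_52_P74576 was 2.94-fold.

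Of the outer dynein arm, the set holds an intermediate chain and heavy chains. Dnaic1, the intermediate chain, gave 397 units with the agonists and 314 with the antagonists (log2 ratio 0.10, error 0.21). Dnah5 and Dnah9 are heavy chains, which carry the motor, and neither was well above background. Dnah5 gave 3.93 and 4.26 units and Dnah9 gave 3.88 and 4.24 units. These signals were below the dimmest ones well above background on either array, and each of these genes had 1 probe. No fold is given for either of them. Other outer arm heavy chains were detected on both arrays: Dnah8 gave 1037 and 850 units (log2 ratio 0.04), Dnah11 gave 41.8 and 21.5 units (0.72, error 0.36) and Dnah17 gave 133 and 74.7 units (0.59). The antagonist signal of Dnah11 was near 19.9 units, the lowest well above background on that array.

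Rsph1, a protein of the radial spoke head, was detected by both of its probes. Probe A_55_P2044684 gave 696 units with the agonists and 573 with the antagonists (log2 ratio 0.04, error 0.20), and probe A_51_P373901 gave 76.4 and 71.0 units (log2 ratio -0.14, error 0.23). Both ratios were within their errors of 0, and their signs turned with the scaling. The central pair was represented by Hydin and the Spag6 genes. Hydin, a giant protein of a central pair projection, gave 311 and 336 units with probe A_51_P326043 (log2 ratio -0.35, error 0.21). Its other probe, A_66_P101360, was not above background with 4.95 and 4.20 units, so the reading of Hydin rested on 1 probe. Spag6 itself gave 10.9 and 4.10 units with one probe and 11.1 and 4.04 with the other. Spag6l gave 6.15 units with the agonists and 14.8 with the antagonists. None of these Spag6 and Spag6l signals was well above background, and no fold is given.

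Tekt1, a tektin filament protein bound to the wall of the doublets, was the one gene of the set that was detected on both arrays and at least 2-fold apart by its brightest probe. Probe A_55_P2111990 gave 217 units with the agonists and 33.1 with the antagonists, for which the log2 ratio was 2.47 (error 0.27), or 5.53-fold. Probe A_55_P2132024 gave 77.5 and 45.1 units, a log2 ratio of 0.54 (error 0.27), or 1.45-fold. Both Tekt1 probes were higher with the agonists, by different amounts. Of all probes detected on both arrays, 2.69% were higher with the agonists by 2-fold or more and 0.705% lower by 2-fold or more, and 55 of the 33073 had a ratio as large as that of the first Tekt1 probe, itself included. The probes of Tekt1 differed by 1.93 on the log2 scale. Of 3781 named genes with several probes well above background on both arrays, 2.22% had probes at least 2-fold apart and 12 differed by as much as Tekt1 or more, while the median range between probes of a gene was 0.17. Under normexp the Tekt1 log2 ratios were 1.21 and 0.11.

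**Figure D2:**
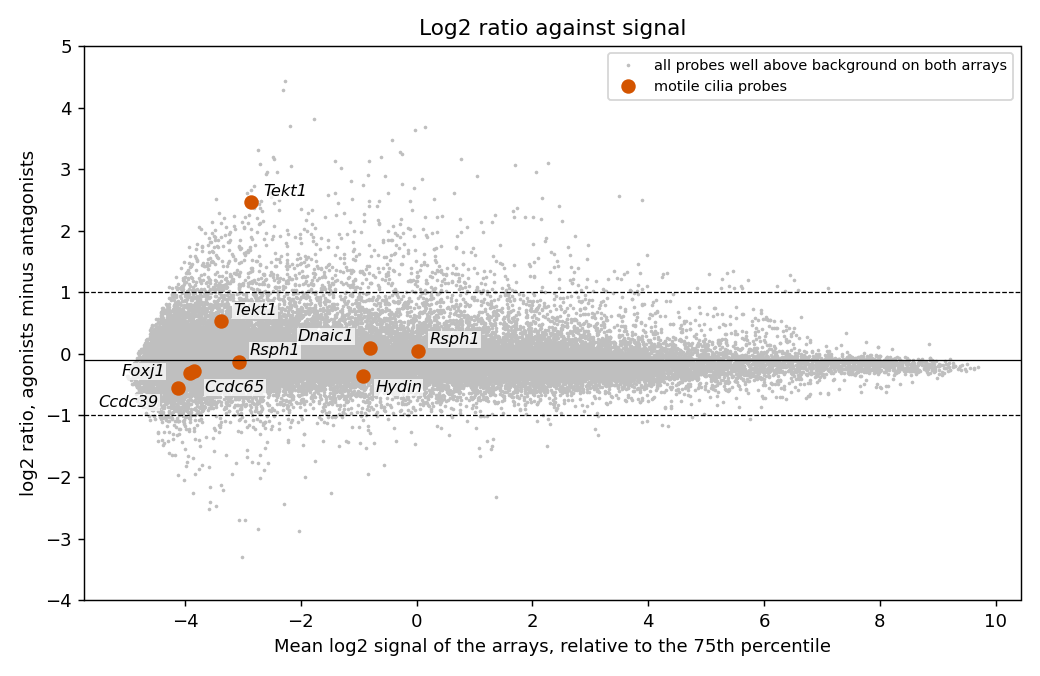
Log2 ratio of agonists minus antagonists (vertical axis) against the mean log2 signal of the arrays relative to the 75th percentile (horizontal axis), for all 33073 probes detected on both arrays (grey) and the 9 motile cilia probes among them (orange). The solid line is the median of all probes and the dashed lines are 2-fold. Apart from the upper Tekt1 probe at 2.47, the cilia probes lie between -0.56 and 0.54.

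Across the set, 9 of the 17 probes were well above background on both arrays, and 8 of them were less than 2-fold apart. These 8 had log2 ratios from -0.56 to 0.54 with software errors of 0.20 to 0.32, 5 lower and 3 higher with the agonists, and 3 of them lay further from the median of all probes than their own error. By the brightest probe of each gene, 4 of the 7 detected genes were lower and 3 higher with the agonists, and their median log2 ratio was -0.27, beside -0.10 for all 15258 named genes detected on both arrays. Scaling on spike-in controls brought the median of the set to 0.00 and that of all named genes to 0.18, so the set stayed below it. Over the alternatives the median of the set ranged from -0.33 to 0.00. At least 2-fold higher by the brightest probe were 4.01% of these named genes, and Tekt1 in the set. At least 2-fold lower were 0.577%, and 0 genes of the set.

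The other genes of the axoneme gave a wider view. In 8 lists of axoneme parts and regulators, 70 further genes were measured. With the agonists 53 were well above background, beside 78.0% of all named genes, and with the antagonists 48, beside 74.7%. Nothing is read from these counts. Of the 47 detected on both arrays, 25 were higher and 22 lower with the agonists, with a median of 0.03, and 4 were higher by 2-fold or more and 0 lower by as much. Of 6 detected with the agonists only and 1 with the antagonists only, 0 had a bound of 2-fold, where 14.4% of the 845 named genes detected with the agonists only had one. Over all named genes detected on both arrays, 37.7% had a log2 ratio above 0 and 62.3% below it, and 4.01% were at least 2-fold higher. With the cilia genes included, the median of all 8 lists was 0.02, beside -0.10 for all named genes. Over the alternatives it ranged from -0.11 to 0.30, above the median of all named genes in each of them except normexp, where the lists had -0.11 and all named genes -0.10. The lists mixed dim and bright genes. Foxj1 gave 40.2 and 42.0 units, while Cfap300 gave 79884 and 80580, Cfap74 14756 and 11610, and Ccno 13564 and 12994. Which cells gave these signals was not tested.

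The genes at least 2-fold apart were parts of the inner arm and of the doublet wall. Dnah6, an inner arm heavy chain, gave 121 units with the agonists and 23.3 with the antagonists (log2 ratio 2.13, error 0.34). Its antagonist signal was near 19.9 units, the lowest well above background on that array. Dnah2, another inner arm heavy chain, gave 156 and 60.2 units (1.13, error 0.23). Both chains were brighter with the agonists. Of 10 inner arm genes listed, 6 were measured and 4 were detected on both arrays. These 4 had a log2 ratio above 0, beside 37.7% of all named genes. Their median was 0.74 and ranged from 0.47 to 1.02 over the alternatives. The ratio of Dnah7a, 0.19, was within its error of 0.24. In the doublet wall, Cfap45, a protein of the inside of the doublet, gave 1041 and 370 units (1.25, error 0.20). Enkur, which lies at the same place, gave 77.7 and 32.7 units (1.01, error 0.30). Its log2 ratio was just past the 2-fold line. Dnah6, Dnah2, Cfap45 and Enkur were each measured by 1 probe.

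The lowest log2 ratios of the axoneme genes were those of Mns1, a doublet protein, with 655 and 950 units (-0.78), Lrrc6 with 26.2 and 36.2 units (-0.71) and Dnaaf2 with 534 and 732 units (-0.70). Lrrc6 and Dnaaf2 serve the assembly of dynein arms in the cytoplasm, and of the 8 assembly genes detected on both arrays 7 were lower and 1 higher with the agonists (median -0.30), where 62.3% of all named genes were lower (median -0.10). Of the 6 regulators detected on both arrays, Foxj1 among them, 4 were lower and 2 higher (median -0.24). The counts of the other lists stand beside the same background. The outer arm list had 6 higher and 1 lower (median 0.10), the radial spoke list 3 higher and 4 lower (median -0.01), the central pair list 3 higher and 2 lower (0.10), the nexin and ruler list 2 higher and 3 lower (-0.27), and the tektin and wall list 7 higher and 5 lower (0.06). As a reference, genes of cilium transport were taken, which motile cilia share with primary cilia, so they mark neither kind alone. All 25 were detected on both arrays, with 9 higher and 16 lower (median -0.16). Over the alternatives the assembly list kept a median below 0 (-0.35 to -0.02) and the tektin and wall list one at or above 0 (0.00 to 0.33). The median of the nexin and ruler list reached 0.00 at most (from -0.33). The medians of the other lists named here changed sign with the setting.

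**Figure D3:**
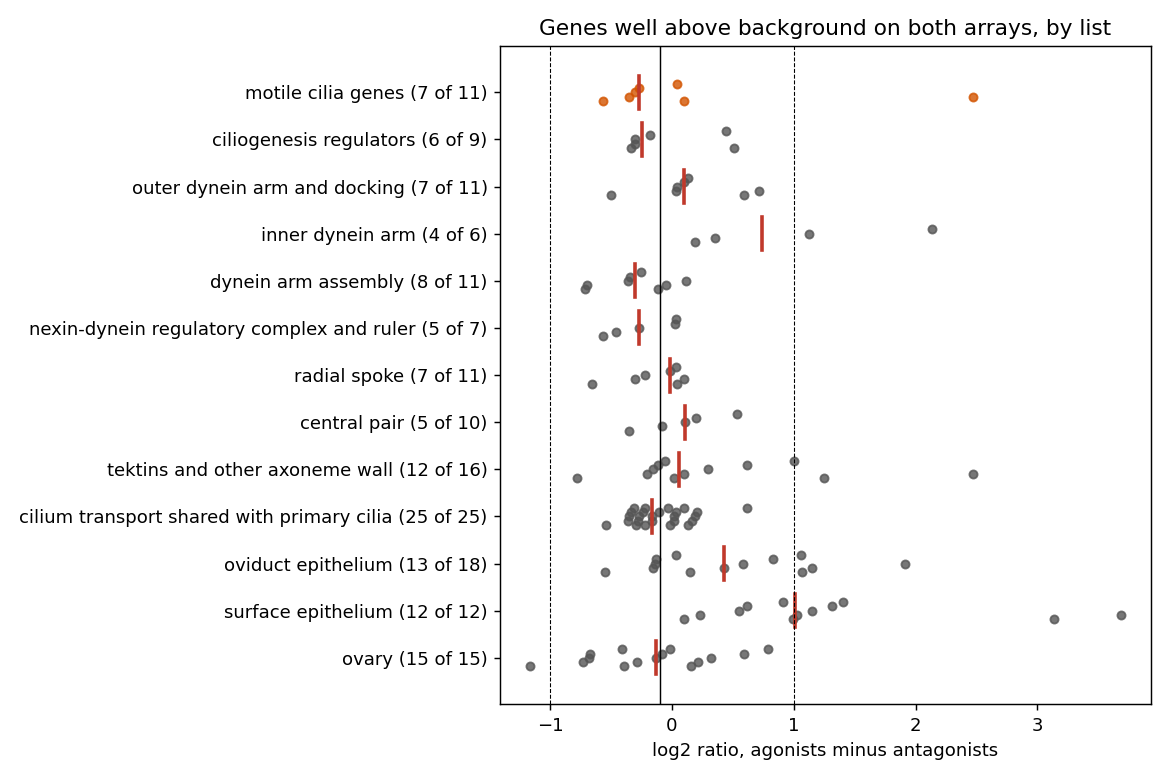
Log2 ratio of agonists minus antagonists of the genes well above background on both arrays, by list (points), with the median of each list (red bar), the median of all named genes (solid line) and 2-fold (dashed lines). The numbers in brackets are genes detected on both arrays of those measured. The motile cilia genes (orange) lie around the median of all genes except Tekt1, while the surface epithelium list lies to the right.

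Markers of oviduct epithelium were set beside these values, in a list that holds genes of secretory cells, of epithelia in general and of ciliated cells, some of them, such as Fam183b and Ccdc153, parts of the axoneme too. Of 18 genes, 15 were well above background with the agonists and 13 with the antagonists, beside 78.0% and 74.7% of all named genes. Nothing is read from these counts. Ovgp1, the secretory marker, gave 91.3 units with the agonists and 113 with the antagonists (log2 ratio -0.55, error 0.22). Pax8, a transcription factor of Müllerian duct epithelium, gave 23.7 and 13.8 units, and was well above background with the agonists only. Its bound was 1.01-fold, and the software error of its log2 ratio was 0.52. Ovgp1 was thus detected in both cultures and was not higher with the agonists. Pax2, another factor of this epithelium, gave 30.6 and 28.8 units (-0.15), and 1700016K19Rik gave 289 and 269 units (-0.14). Sox17 and Emx2, transcription factors of the same list, were brighter than these and higher with the agonists. Sox17 gave 635 and 303 units (0.83, error 0.205) and Emx2 gave 614 and 346 units (0.58, error 0.205).

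Of the 13 oviduct list genes detected on both arrays, 9 were higher and 4 lower with the agonists, 4 were at least 2-fold higher, and the median log2 ratio was 0.43, from 0.05 to 0.70 over the alternatives. Of all named genes 37.7% were higher and 4.01% at least 2-fold higher, with a median of -0.10. The genes past 2-fold were Cldn3, a tight junction protein, with 115 and 25.8 units (1.91, error 0.31), Krt7, a keratin, with 706 and 270 units (1.15, error 0.21), Epcam, an adhesion protein of epithelia, with 182 and 73.2 units (1.07, error 0.23), and Fam183b, a protein of the cilium, with 366 and 149 units (1.06, error 0.21). Each of these genes was measured by 1 probe. Cldn3, Krt7 and Epcam are general epithelial genes, and Krt7 is also in the list of ovarian surface epithelium. In that list all 12 measured genes were detected on both arrays and were higher with the agonists, 6 of them at least 2-fold, with a median of 1.01, beside the 37.7% and 4.01% of all named genes. The surface list, like the oviduct list, was written with earlier results of these data known, and its counts are a description. Its summed level was 116 times the 75th percentile with the agonists and 75.1 times with the antagonists, a sum in which the brightest probes weigh most. The brightest genes of the surface list were Aldh1a1 with 22761 and 13131 units (0.55) and Wt1 with 21407 and 15468 units (0.23). Which cells gave their signals was not tested. The part of the surface epithelium in the ratios of Tekt1, Dnah6, Cldn3 and Krt7 was not tested.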

How the data were processed

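The authors had the RNA hybridised to single-colour Agilent SurePrint G3 Mouse GE arrays and read with Agilent Feature Extraction 10.10.1.1, and deposited linear spot intensities that the software had corrected for background, not scaled between arrays. A deposited summary table equalled this signal times 1.99 (agonists) and 2.19 (antagonists). The arrays were on the same slide.

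From these files, control spots and spots marked as outliers were left out, log2 of the processed signal was reduced by its array's 75th percentile, and replicate spots were averaged to 55674 probes. A probe counted as well above background if more than 50% of its spots had that mark. Of these, 27230 probes were named through RefSeq accessions of GRCm38.p6, and 453 of 26531 NM probes found no name. For each gene the probe brightest in mean log2 signal was used, and the summed level of a list is of linear signals over the 75th percentile. A probe well above background on 1 array has a bound, in which the dim value is replaced by the lowest well above background signal of its array if that is higher. The bound does not include the software error.

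The genes and lists were chosen with earlier results of these data known. The text names every member, and of the axoneme and oviduct lists the genes at least 2-fold apart, the 3 highest and 3 lowest log2 ratios of each, Ovgp1 and Pax8. The example genes of the ovary list and the further list genes were named outside this rule. With 1 array per group no test was made, and the number of arrays limits the precision. Alternatives were other scalings (none, median, probes detected on both arrays, quantile, loess with span 0.3, E1A spike-in controls), the authors' table, normexp (offset 50) on the median spot signal, and other filters and summaries. Python 3.11.15, numpy 2.4.6, pandas 2.3.3, R 4.3.3 and limma 3.58.1 were used. Simulated data served to test the arithmetic.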

Additional observations from a re-analysis of the deposited data

How the results depend on the processing

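The median log2 ratio of the motile cilia genes was -0.27 and moved to 0.00 (0.002) with scaling on spike-in controls. The median of all axoneme lists together, over genes detected on at least 1 array, was 0.04 and moved to 0.28 without scaling and to 0.31 with spike-in controls. In the same settings the median of all probes detected on both arrays moved from -0.10 to 0.14 and 0.18, and the counts at least 2-fold higher and lower moved from 890 and 233 to 1499 and 98 without scaling and to 1625 and 88 with spike-in controls. The counts became 410 and 60 under normexp and 3339 and 2333 when dim probes were kept, and 149 probes were lower by the authors' table. The 17 probes under 10 alternatives gave 170 values, of which 155 moved by less than the software error of the probe and 15 moved by more. The count of 155 is no measure of stability. Keeping outlier spots or taking the median over spots could not move a value, as each probe had 1 spot without an outlier mark. The errors of undetected probes were wide, up to 2.05. Spag6 probe A_55_P2132154 (error 1.54) went from 1.22 to -0.06 under normexp and still counted among the 155. Some ratios changed sign, among them those of both Rsph1 probes and of the undetected Dnah5 and Dnah9. Both Tekt1 probes and the Ccdc65 probe A_52_P74576 kept their sign in all 10 alternatives. The Tekt1 probe A_55_P2111990 ranged from 1.21 to 2.74 and A_55_P2132024 from 0.11 to 0.82. The bound of the Ccdc65 probe A_52_P74576 ranged from 2.94-fold to 11.6-fold, and its probe A_66_P108434 went from 0.39 to -0.17 with normexp. With every probe of a gene required above background, 5 genes were detected on each array in place of 7. The cause of these moves was not tested. Genes with signals near 20 units are at the limit of detection. No paired analysis was possible because each group has 1 array.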
